A study of Homo sapiens with 9 samples.

Results

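The nuclear factor κB (NF-κB) subunits and their feedback inhibitors were read in U87, GSCs and Diff cells as 10 genes taken by symbol from the deposited table of 60606 genes. They were the 5 subunits RELA, NFKB1, REL, NFKB2 and RELB and 5 genes that restrain or return the signal, NFKBIA, NFKBIE, NFKBIZ, TNFAIP3 and BIRC3. U87, an established human glioblastoma line, was grown with 10% fetal bovine serum and was not irradiated. GSCs were the stem cells derived from it, exposed to 13 cycles of 5 Gy and kept in serum-free culture supplied with 20 ng/ml of EGF and as much bFGF. Diff cells were the progeny of those irradiated GSCs after differentiation in 10% serum, grown on from cells picked out of clonal colonies, so that they may stand for few founder cells. Every line therefore goes back to U87, and both derived lines carry the same irradiation history, so irradiation and the passage through stem cell culture cannot be told apart. Serum also differed between GSCs and the other lines. Each line gave 3 libraries, and the sample records do not say whether these came from separate cultures. The study's methods speak of biological replicates for its data in general but not of these libraries by name, so p-values are read here as the spread between libraries only.

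In resting cells NF-κB dimers are held in the cytoplasm by the inhibitors of the IκB family. In the canonical branch the IKK complex destroys IκBα and sets free dimers of RELA (p65) or REL with p50, which is cut from the NFKB1 precursor. In the noncanonical branch the kinase NIK, encoded by MAP3K14, has the NFKB2 precursor p100 cut to p52, which pairs with RELB. Several inhibitors are themselves NF-κB target genes, so the pathway writes its own brakes: NFKBIA encodes IκBα and TNFAIP3 the ubiquitin-editing enzyme A20. BIRC3, also a target gene, encodes the ubiquitin ligase cIAP2, which helps to hold NIK down in the noncanonical branch. The values here are transcript levels, and neither the cutting of precursors nor the entry of a subunit into the nucleus is measured by them.

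The sequence that NF-κB dimers bind, the κB site, was searched for from 250 bases upstream to 50 bases downstream of RefSeq start sites, because members that are their own targets carry it there. The letters GGGANNTTCC and GGGNNTTTCC, in which N is any base, were searched on both strands, and a stretch that has A in the fourth place and TTTCC at its end counts under both. Of 35116 promoters in the GRCh38.p14 table, 1.61% held the first, 1.91% the second and 2.94% either. Promoter entries were found for 8 members, and 7 of these had at least 1 match, in 8 of their 13 entries. The 30 bases around 1 match of each of the 7 genes are given here 5′ to 3′ on the strand of the gene, with the match in capitals.
NFKB1, chr4:102501300-102501329, plus strand: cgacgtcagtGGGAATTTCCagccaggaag
NFKB2, chr10:102395674-102395703, plus strand: tggtattttcGGGACTTTCCtaagctgctc
REL, chr2:60881517-60881546, plus strand: cgtcagccgcGGGAAATTCCcctcccgcca
NFKBIA, chr14:35404811-35404840, minus strand: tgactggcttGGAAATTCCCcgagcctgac
NFKBIZ, chr3:101827757-101827786, plus strand: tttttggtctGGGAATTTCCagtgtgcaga
TNFAIP3, chr6:137867182-137867211, plus strand: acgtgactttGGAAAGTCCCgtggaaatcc
BIRC3, chr11:102317275-102317304, plus strand: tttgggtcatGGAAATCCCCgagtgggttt
TNFAIP3 held a second match that began 55 bases upstream of the start, 12 bases after the first. REL held a second match that began 46 bases upstream and overlapped the first, and NFKB2 held another in a different entry, 78 bases upstream. The match in NFKBIA began 81 bases upstream of the start, and those in TNFAIP3 and BIRC3 began 67 and 199 bases upstream. NFKB1 and NFKBIZ shared the same 10 letters. Neither of the 2 entries of RELA held these letters. A match describes the letters of the reference and no binding was measured.

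The 250 bases before the start of NFKBIA are shown whole because IκBα is the classical feedback gene of the canonical branch, again with the match in capitals (chr14:35404750-35404999, minus strand).
NFKBIA: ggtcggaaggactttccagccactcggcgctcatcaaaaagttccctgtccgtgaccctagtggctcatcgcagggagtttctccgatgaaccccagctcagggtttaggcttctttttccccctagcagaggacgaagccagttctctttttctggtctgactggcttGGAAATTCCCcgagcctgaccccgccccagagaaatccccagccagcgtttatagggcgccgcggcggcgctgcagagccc

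Levels are given as TPM, a gene's transcripts out of 1000000 with gene length divided out, so that genes can be set beside each other. Differences are those of log2(TPM + 1), the deposited scale, and were tested with limma among the 22909 genes with a mean over 1 TPM. A gene is said to have risen or fallen where the Benjamini-Hochberg adjusted p was under 0.05. Of the 10 members, 9 passed that mean, and BIRC3 did not. Between 25.9% and 31.8% of a library's TPM belonged to mitochondrial genes. RN7SL transcripts took 10.3% to 11.4% in U87, 6.08% to 8.31% in GSCs and 7.35% to 9.44% in Diff cells. Of 4 stem cell markers, PROM1 had means of 0.171 TPM in U87, 0.507 in GSCs and 0.0236 in Diff cells and SOX2 means of 0.0383, 0.879 and 0.153, both under 1 TPM in every library. FABP7 had means of 0.731, 4.91 and 2.86 TPM and NES means of 33.0, 22.6 and 13.5 TPM in the same order.

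RELA was the most abundant member on average in all 3 lines and NFKBIA the next. In U87 the means were 98.3 ± 4.36 TPM for RELA and 70.1 ± 1.60 for NFKBIA (SD, n = 3), well above NFKBIZ at 20.7 ± 1.25 and NFKB2 at 13.2 ± 0.620. RELB followed at 10.7 ± 0.901 TPM, TNFAIP3 at 7.55 ± 0.533, NFKB1 at 7.34 ± 0.422, NFKBIE at 3.12 ± 0.590, REL at 3.09 ± 0.335 and BIRC3 at 0.351 ± 0.0631 (SD, n = 3). TNFAIP3 and NFKB1 overlapped in this order, as did NFKBIE and REL. In GSCs TNFAIP3 moved from sixth to the third place. RELA and NFKBIA overlapped there, as did NFKB2 and NFKBIZ. In Diff cells NFKBIZ, NFKB1 and NFKB2 overlapped with each other.

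**Figure D1:**
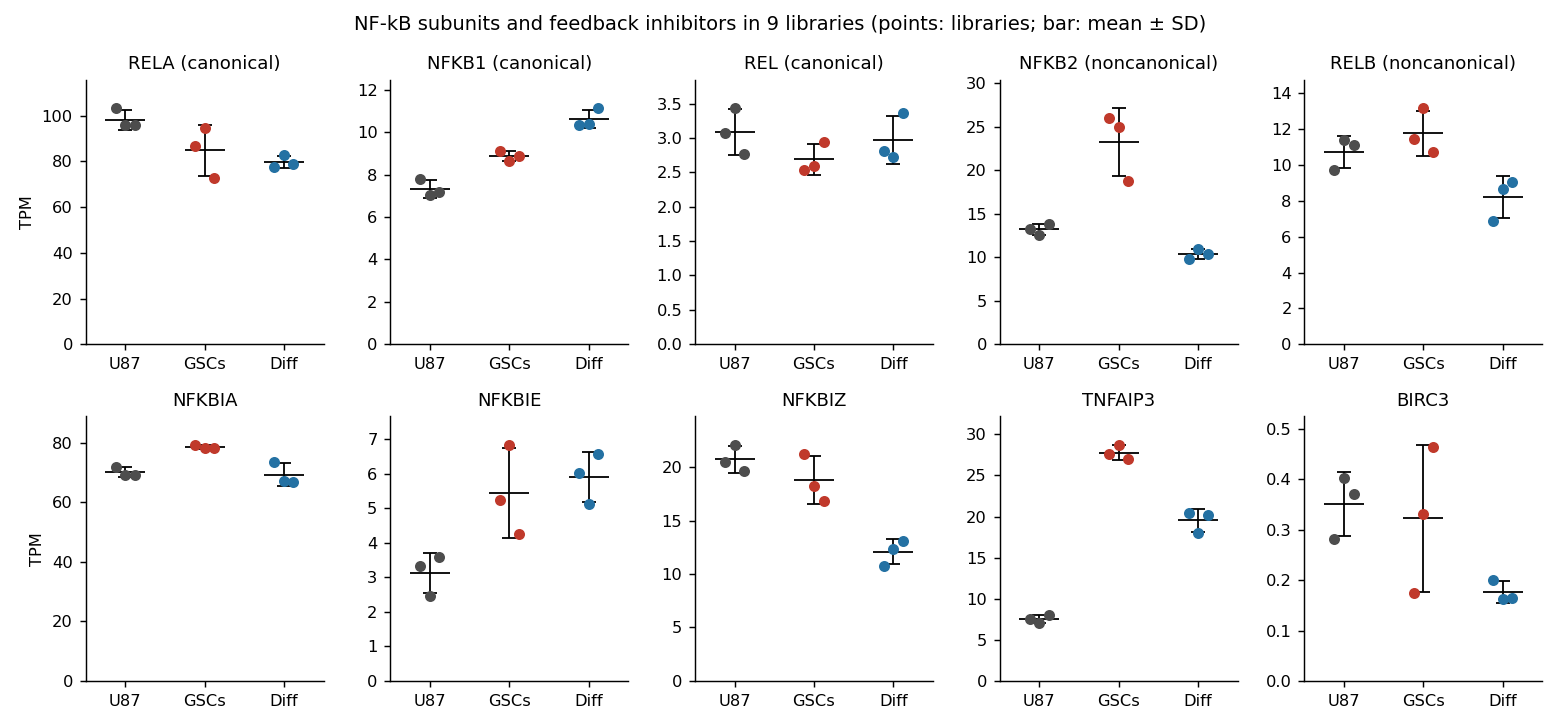
TPM of the 10 members by cell line, one panel per gene with its own axis from 0, in which points are libraries and bars the mean ± SD of 3 libraries. TNFAIP3 and NFKB2 were highest in all 3 GSCs libraries, NFKB1 was highest and NFKBIZ lowest in all 3 Diff libraries, and BIRC3 stayed under 0.47 TPM throughout.

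RELA, the p65 subunit that carries most of the transactivating function, lies on chromosome 11 from 65653596 to 65663094 on the minus strand (GENCODE 29, GRCh38). It had 103, 95.8 and 95.8 TPM in U87, 86.7, 94.8 and 72.9 in GSCs and 77.5, 82.6 and 78.7 in Diff cells. Each derived line lay under U87 in all 3 libraries, and GSCs overlapped with Diff cells. RELA fell in Diff cells against U87 by 0.30 (standard error 0.0896, adjusted p = 0.0269 from limma), to 0.810 of the U87 mean. The difference of GSCs from U87 was -0.22 and did not pass (adjusted p = 0.0739 from limma). Without GSCs replicate 2 it was -0.30 with an adjusted p of 0.0168 from limma, and without RN7SL and mitochondrial genes in the TPM it was -0.26 with an adjusted p of 0.0326. The fall in Diff cells lost its call in 8 of 16 alternatives. These were quantile normalization (adjusted p = 0.0597), median-ratio scaling (adjusted p = 0.0839), limma without a trend (adjusted p = 0.0523) and the omission of U87 replicate 1 (adjusted p = 0.0916), 2 (0.0522) or 3 (0.0533) or of Diff replicate 1 (0.0791) or 3 (0.0742). The interval of the difference between Diff cells and GSCs ran from -0.29 to 0.12 at 95% confidence; without GSCs replicate 3 that difference was -0.19 and passed (adjusted p = 0.0399 from limma).

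NFKB1, which encodes the p105 precursor of p50, went the other way from RELA. Its TPM was 7.82, 7.03 and 7.17 in U87, 9.12, 8.63 and 8.89 in GSCs and 10.3, 10.4 and 11.1 in Diff cells, and no pair of lines overlapped. It rose by 0.48 in Diff cells against U87 (standard error 0.0786, adjusted p = 0.0013 from limma), 1.45 times the U87 mean, and this call held in all 16 alternatives. The smaller steps were 0.24 from U87 to GSCs (adjusted p = 0.03) and 0.24 from GSCs to Diff cells (adjusted p = 0.0469 from limma). The first lost its call in 6 of 16 alternatives, among them the omission of U87 replicate 2 (adjusted p = 0.0921), U87 replicate 3 (0.085) or GSCs replicate 1 (0.0872), quantile normalization (0.0949) and a fit of those lines alone (0.079). The second lost it in 8 of 16, including the omission of any 1 GSCs or Diff library, with adjusted p from 0.0572 to 0.156, and a fit of those lines alone (0.086).

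REL, which encodes c-Rel, a subunit best known from lymphoid cells, was the least abundant subunit. It had 3.07, 3.43 and 2.76 TPM in U87, 2.53, 2.59 and 2.94 in GSCs and 2.81, 2.72 and 3.36 in Diff cells. The lines overlapped in every comparison and none passed the test, with differences of -0.15, -0.04 (0.0299 after quantile normalization) and 0.10 for GSCs against U87, Diff cells against U87 and Diff cells against GSCs. The interval of the widest of these ran from -0.44 to 0.14. In GENCODE 29, 43.3% of the exonic bases of REL also belong to AC010733.2 on the same strand. The annotation behind the deposited table is not given in the sources used here, so it was not tested whether this overlap entered its values, and the level of REL is uncertain.

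Both noncanonical subunits fell from GSCs to Diff cells. NFKB2, the p100 precursor gene on chromosome 10 from 102394110 to 102402529, had 13.2, 12.6 and 13.8 TPM in U87, 25.98, 24.9 and 18.7 in GSCs and 9.76, 10.9 and 10.3 in Diff cells. GSCs lay above the other lines in each library, with GSCs replicate 3 lower than the other 2 GSCs libraries. NFKB2 rose by 0.76 in GSCs against U87 (standard error 0.119, adjusted p = 0.00077 from limma), 1.76 times the U87 mean. It fell by 1.08 in Diff cells against GSCs (standard error 0.119, adjusted p = 0.000213 from limma), to 0.445 of the GSCs mean. Both calls held in all 16 alternatives, and without GSCs replicate 3 the differences were larger. The difference of Diff cells from U87 was -0.32, with all 3 Diff libraries lower and an adjusted p of 0.0598 from limma. It passed with a filter of a mean over 5 TPM (adjusted p = 0.0466) and in a fit of those lines alone (adjusted p = 0.0114).

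RELB, the partner of p52, had 9.72, 11.4 and 11.1 TPM in U87, 11.4, 13.2 and 10.7 in GSCs and 6.86, 8.66 and 9.06 in Diff cells. U87 and GSCs overlapped, and Diff cells lay under both. RELB fell by 0.48 in Diff cells against GSCs (standard error 0.122, adjusted p = 0.0158 from limma). That call was lost without GSCs replicate 2 (adjusted p = 0.0503) and after quantile normalization (adjusted p = 0.0775). Against U87 it fell by 0.36 (adjusted p = 0.0461 from limma), a call lost in 10 of 16 alternatives. The omission of U87 replicate 2 gave an adjusted p of 0.13, of U87 replicate 3 one of 0.12, of Diff replicate 1 one of 0.142 and of Diff replicate 2 one of 0.0685. In GSCs against U87 the difference was 0.12, with an interval from -0.16 to 0.40.

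**Figure D2:**
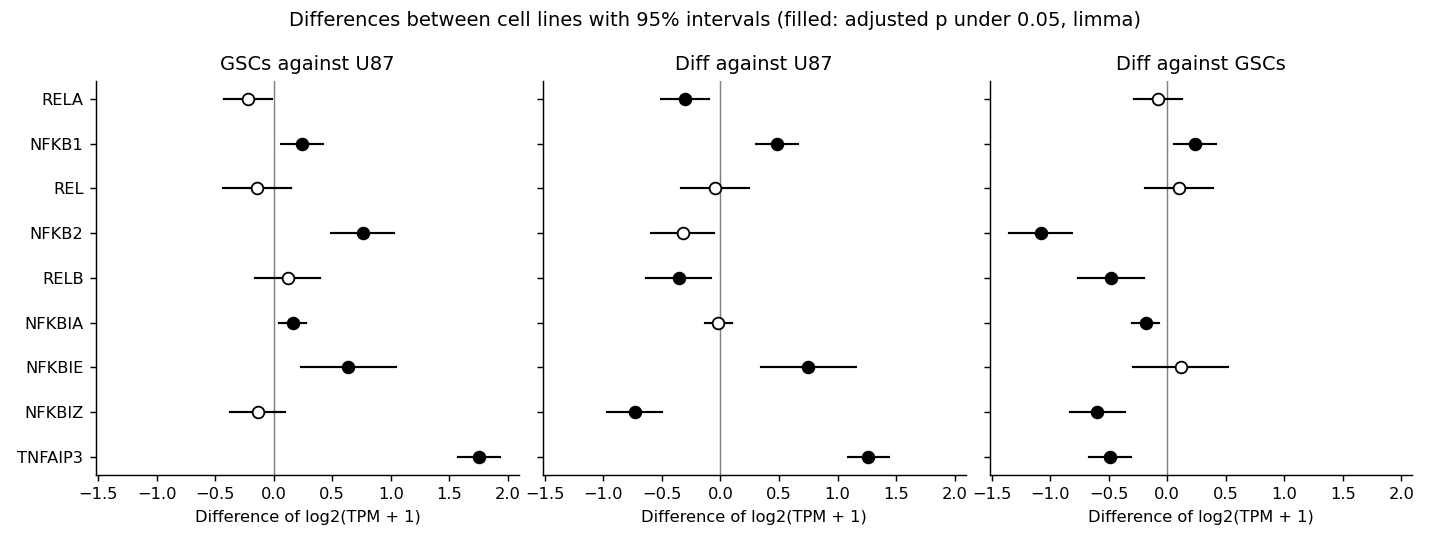
Difference of log2(TPM + 1) for the 9 tested members in each of the 3 comparisons, with 95% intervals; filled points have an adjusted p under 0.05 from limma. TNFAIP3 stood at 1.75 and 1.26 in the comparisons with U87, and NFKB2 at 0.76 for GSCs against U87 and at -1.08 for Diff cells against GSCs.

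Set beside each other per length, the 5 subunit transcripts summed to 133 ± 3.90 TPM in U87, 131 ± 15.5 in GSCs and 112 ± 4.09 in Diff cells (SD, n = 3). RELA supplied 74.1% ± 1.10 of that sum in U87, 64.5% ± 1.11 in GSCs and 71.3% ± 1.22 in Diff cells (SD, n = 3). The noncanonical subunits NFKB2 and RELB supplied 16.7%, 18.4% and 19.1% in the U87 libraries, 27.6%, 26.4% and 25.8% in GSCs and 15.5%, 17.0% and 17.2% in Diff cells. GSCs lay above both other lines in each library, and U87 and Diff cells overlapped. Of the noncanonical pair, NFKB2 separated GSCs from U87 in every library and RELB did not.

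The TPM ratio of NFKB2 to NFKB1, the precursors of p52 and p50, was 1.80 ± 0.117 in U87, 2.61 ± 0.440 in GSCs and 0.973 ± 0.0660 in Diff cells (SD, n = 3). The 3 lines did not overlap, and in Diff cells NFKB2 and NFKB1 transcripts were about equally abundant. The ratio of RELA to RELB was 9.22 ± 1.23 in U87, 7.19 ± 0.392 in GSCs and 9.84 ± 1.33 in Diff cells (SD, n = 3), with U87 and Diff cells overlapping. These shares and ratios are descriptions and were not tested.

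**Figure D3:**
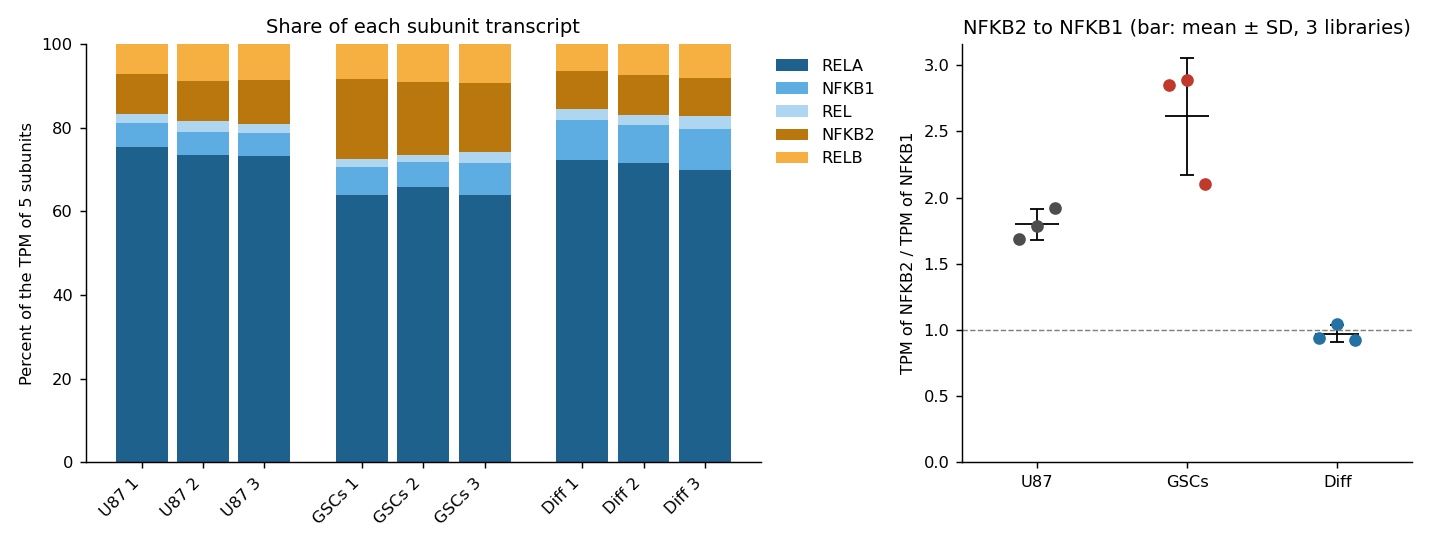
Left, percent of the summed TPM of RELA, NFKB1, REL, NFKB2 and RELB held by each in every library; right, TPM of NFKB2 divided by TPM of NFKB1, with points for libraries, bars for mean ± SD and a dashed line at 1. NFKB2 and RELB together took 25.8% to 27.6% in GSCs and no more than 19.1% in any other library.

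TNFAIP3, the gene of A20, which edits ubiquitin chains on upstream adaptors and so ends the canonical signal, differed more than any other tested member in both comparisons with U87. It lies on chromosome 6 from 137867188 to 137883312. Its TPM was 7.55, 7.01 and 8.08 in U87, 27.6, 28.7 and 27.1 in GSCs and 20.4, 17.9 and 20.2 in Diff cells. The lines did not overlap in any comparison. TNFAIP3 rose 3.68-fold in GSCs against U87, a log2 difference of 1.75 (standard error 0.0780, adjusted p = 4.27e-07 from limma). In Diff cells it was 2.59-fold above U87, a rise of 1.26 (adjusted p = 4.02e-06 from limma), and it fell by 0.49 from GSCs to Diff cells (adjusted p = 0.00155 from limma). All 3 calls held in all 16 alternatives, and with RN7SL and mitochondrial genes removed from the TPM the rises were 1.76 and 1.33.

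NFKBIA, the gene of IκBα, which holds RELA and p50 in the cytoplasm, varied little. It lies on chromosome 14 from 35401511 to 35404749 on the minus strand. It had 71.9, 69.2 and 69.1 TPM in U87, 79.2, 78.3 and 78.2 in GSCs and 73.6, 67.1 and 66.9 in Diff cells, so that GSCs lay above the other lines in each library. It rose by 0.16 in GSCs against U87 (adjusted p = 0.027) and fell by 0.18 in Diff cells against GSCs (adjusted p = 0.0229 from limma). The first call was lost in 5 of 16 alternatives, with adjusted p of 0.0765 without U87 replicate 2, 0.0816 without U87 replicate 3 and 0.0747 without GSCs replicate 1. The second was lost in 7 of 16, with adjusted p of 0.0676 without GSCs replicate 1, 0.0874 without Diff replicate 2 and 0.093 without Diff replicate 3. Removal of RN7SL and mitochondrial genes, whose shares differed between lines, gave 0.12 (adjusted p = 0.0665) and -0.11 (adjusted p = 0.106 from limma). The difference of Diff cells from U87 was -0.02 with an interval from -0.14 to 0.10, and its sign changed to 0.0145 under median-ratio scaling and to 0.0087 without those genes. The TPM ratio of NFKBIA to RELA was 0.713 ± 0.0150 in U87, 0.938 ± 0.125 in GSCs and 0.870 ± 0.0710 in Diff cells (SD, n = 3), higher in both derived lines in each library.

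NFKBIE, the gene of IκBε, a slower inhibitor of the same family, had 3.33, 2.46 and 3.58 TPM in U87, 5.23, 6.84 and 4.26 in GSCs and 6.03, 5.13 and 6.57 in Diff cells. Both derived lines lay above U87 in each library and overlapped with each other. NFKBIE rose by 0.63 in GSCs against U87 (standard error 0.178, adjusted p = 0.0167 from limma), a call lost without U87 replicate 2 (adjusted p = 0.0578) or GSCs replicate 2 (adjusted p = 0.0524). It rose by 0.75 in Diff cells against U87 (adjusted p = 0.0095 from limma), 1.89 times the U87 mean. That rise held in all 15 alternatives that kept the gene. At this level the added 1 TPM compresses the difference, which was 0.91 in Diff cells with a pseudocount of 0.1.

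NFKBIZ encodes IκBζ, a nuclear member of the IκB family that works as a cofactor at a subset of NF-κB target genes. It had 20.4, 22.1 and 19.6 TPM in U87, 21.3, 18.3 and 16.8 in GSCs and 10.8, 12.4 and 13.1 in Diff cells. U87 and GSCs overlapped, and all 3 Diff libraries lay under both. NFKBIZ fell by 0.73 in Diff cells against U87 (standard error 0.104, adjusted p = 0.000559 from limma), to 0.583 of the U87 mean. Against GSCs it fell by 0.60 (adjusted p = 0.00251 from limma). Both calls held in all 16 alternatives.

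BIRC3 stayed far under 1 TPM in every library. It had 0.281, 0.403 and 0.371 TPM in U87, 0.174, 0.330 and 0.465 in GSCs and 0.201, 0.164 and 0.165 in Diff cells. In a fit without the filter its adjusted p was 0.821, 0.163 and 0.274 from limma for GSCs against U87, Diff cells against U87 and Diff cells against GSCs. Its paralog BIRC2, which encodes cIAP1, is measured at a far higher level, 49.5, 49.0 and 58.3 TPM in U87, and is taken up with the noncanonical branch.

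In GSCs against U87, 5 of the 9 tested members rose and none fell, where 48.6% of all genes tested passed in either direction. In Diff cells against U87, 3 rose and 3 fell, beside 39.4% of all genes. In Diff cells against GSCs, 1 rose and 5 fell, beside 34.8% of all genes. The median difference over the 9 was 0.16, -0.04 and -0.18 in that order, against 0.02, -0.04 and -0.06 over all genes. With a log2 difference over 1 required as well, 1 member was called in each comparison, TNFAIP3, TNFAIP3 and NFKB2, where 17.1%, 12.3% and 8.01% of all genes were called. The lines did not overlap for 6, 7 and 6 of the 9, beside 55.8%, 55.2% and 46.7% of all genes. The count in GSCs against U87 was 2 without U87 replicate 2, and 3 without U87 replicate 3 or GSCs replicate 1.

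Upstream of p100, MAP3K14, the gene of NIK, had 10.2, 8.78 and 9.76 TPM in U87, 4.12, 4.59 and 4.02 in GSCs and 7.91, 8.65 and 9.996 in Diff cells. It fell by 1.01 in GSCs against U87 (standard error 0.109, adjusted p = 8.05e-05) and rose by 0.91 in Diff cells against GSCs (adjusted p = 0.000357 from limma). GSCs, the line with the most NFKB2 transcript, thus had the least MAP3K14 transcript. TRAF3, the adaptor that brings NIK to its destruction, had 22.4, 23.6 and 23.3 TPM in U87, 13.4, 12.5 and 12.5 in GSCs and 18.4, 17.7 and 17.6 in Diff cells. Its difference was -0.81 in GSCs against U87 (adjusted p = 8.8e-06), -0.35 in Diff cells against U87 (adjusted p = 0.00175) and 0.45 in Diff cells against GSCs (adjusted p = 0.000606 from limma).

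TRAF2, which joins TRAF3 to the cIAP ligases, passed in no comparison and lay between 10.98 and 14.4 TPM in the 9 libraries. BIRC2 had 27.5, 22.2 and 27.6 TPM in GSCs and 23.1, 22.4 and 23.6 in Diff cells, with all of them under U87. It fell by 1.14 in Diff cells against U87 (adjusted p = 2.95e-05) and by 0.99 in GSCs against U87 (adjusted p = 4.92e-05 from limma). CD40, a receptor that signals through both branches, had 6.66, 6.52 and 5.45 TPM in U87, 25.0, 23.5 and 22.01 in GSCs and 9.49, 9.80 and 9.13 in Diff cells. It rose 3.78-fold in GSCs against U87 (log2 difference 1.77, adjusted p = 9.43e-07 from limma) and fell by 1.22 in Diff cells against GSCs (adjusted p = 2.38e-05 from limma). CD40 and NFKB2 were therefore both highest in GSCs, while MAP3K14 and TRAF3 were lowest there.

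**Figure D4:**
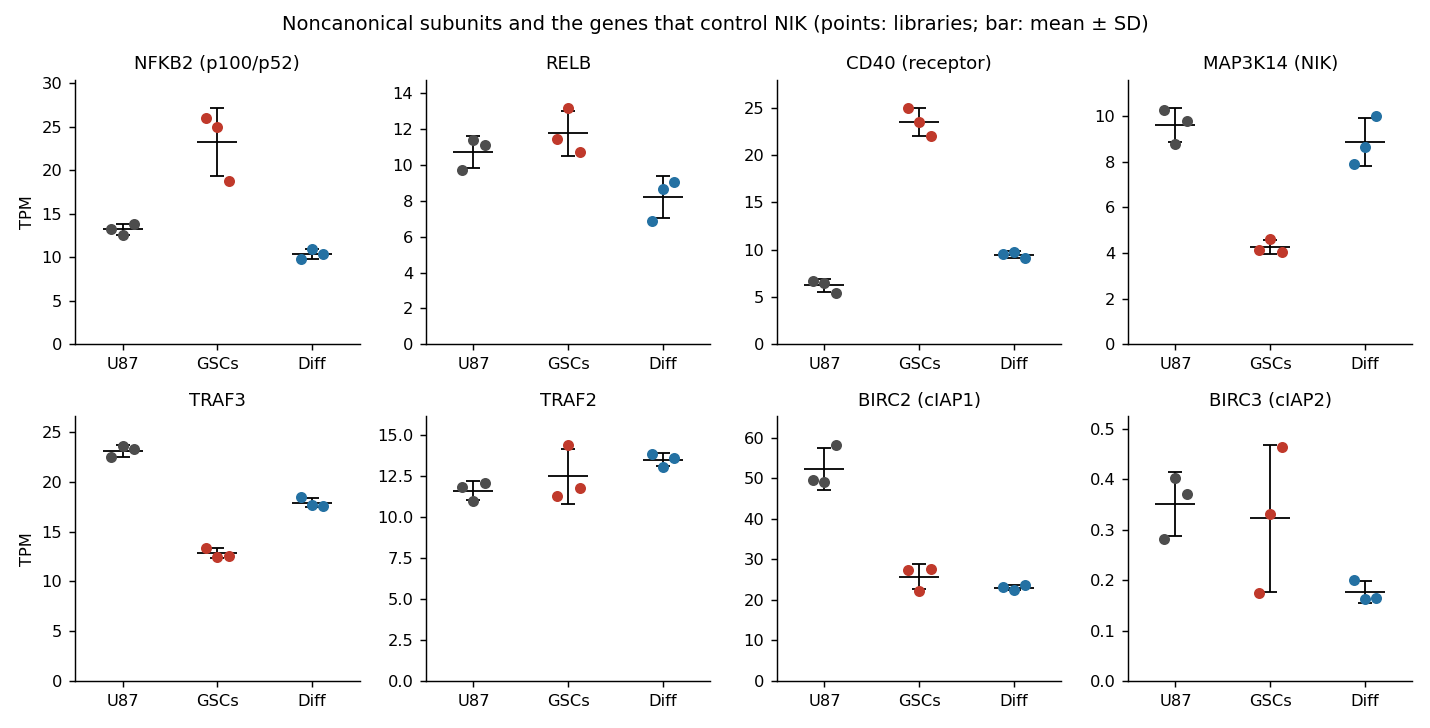
TPM by cell line of the noncanonical subunits NFKB2 and RELB, the receptor CD40, the kinase gene MAP3K14 and the genes of the TRAF and cIAP proteins that hold NIK down; points are libraries and bars the mean ± SD of 3 libraries. MAP3K14 had 4.02 to 4.59 TPM in GSCs, under every U87 and Diff library, and BIRC2 at most 27.6 TPM in the derived lines.

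Among the kinases of the canonical branch, the catalytic subunits of IKK showed no passing difference. IKBKB lay between 9.19 and 12.1 TPM in the 9 libraries and CHUK between 10.04 and 15.1. For CHUK, omission of GSCs replicate 3 brought GSCs against U87 and Diff cells against GSCs past the test, at -0.39 (adjusted p = 0.00318) and 0.38 (adjusted p = 0.00613 from limma). IKBKG, the regulatory subunit NEMO, fell by 0.49 in GSCs against U87 (adjusted p = 0.011 from limma). IKBKE, an IKK-related kinase, had 21.4, 22.8 and 21.0 TPM in U87, 7.85, 9.28 and 6.85 in GSCs and 20.5, 20.8 and 20.8 in Diff cells. It fell by 1.35 in GSCs against U87 (adjusted p = 7.1e-06) and rose by 1.28 in Diff cells against GSCs (adjusted p = 2.71e-05 from limma).

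Of the 19 tested genes of the list of kinases and ubiquitin enzymes, 2 rose and 6 fell in GSCs against U87, 0 rose and 3 fell in Diff cells against U87, and 3 rose and 5 fell in Diff cells against GSCs. These are 42.1%, 15.8% and 42.1% of the list, beside 48.6%, 39.4% and 34.8% of all genes, and the medians were -0.11, -0.07 and 0.00. TAB2, an adaptor of the kinase TAK1, fell by 0.76 and 0.52 in GSCs and Diff cells against U87. UBE2N, the ubiquitin-conjugating enzyme of lysine-63 chains in this pathway, fell by 0.26 and 0.32 in the same comparisons, and its partner UBE2V1 rose by 0.64 in GSCs and fell by 0.86 in Diff cells against GSCs. The call of UBE2N in GSCs was lost without any 1 U87 library or GSCs replicate 1 or 2, with adjusted p from 0.0977 to 0.143 from limma, and with a pseudocount of 0.1, without the filter, without a trend or in a fit of those lines alone, with adjusted p from 0.051 to 0.0781. Its call in Diff cells was lost without any 1 U87 library or Diff replicate 1 or 2, with adjusted p from 0.0572 to 0.0951. CSNK2A1, a subunit of casein kinase 2, fell by 0.40 in Diff cells against U87 and by 0.29 against GSCs. The second of these was lost without GSCs replicate 1 (adjusted p = 0.0714) or 3 (0.0642), or any 1 Diff library (0.0967 to 0.122, limma). It was also lost with a pseudocount of 5 (0.0514), without the filter (0.0655), without a trend (0.0543), in a fit of those lines alone (0.105), after quantile normalization (0.114) and without RN7SL and mitochondrial genes (0.114).

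Further members of the IκB family split between the lines. NFKBIB, the gene of IκBβ, had 20.1, 19.4 and 16.7 TPM in U87, 8.37, 11.1 and 9.60 in GSCs and 21.1, 19.6 and 21.1 in Diff cells. It fell by 0.88 in GSCs against U87 (adjusted p = 0.000183) and rose by 1.02 in Diff cells against GSCs (adjusted p = 0.000185 from limma). GSCs, with the most NFKBIA, had the least NFKBIB. NFKBID, a nuclear IκB protein like IκBζ, rose by 0.43 in GSCs against U87 (adjusted p = 0.00922) and fell by 0.44 in Diff cells against GSCs (adjusted p = 0.0121 from limma), a call lost after quantile normalization (-0.30, adjusted p = 0.0923). BCL3, a nuclear IκB protein that binds p50 and p52, fell by 0.68 in GSCs against U87 (adjusted p = 0.000887) and rose by 0.47 in Diff cells against GSCs (adjusted p = 0.0108 from limma).

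In the list of other inhibitors and regulators, 19 genes were tested. In GSCs against U87, 6 rose and 7 fell; in Diff cells against U87, 4 rose and 3 fell; in Diff cells against GSCs, 8 rose and 2 fell. These are 68.4%, 36.8% and 52.6% of the list, beside 48.6%, 39.4% and 34.8% of all genes, with medians of -0.06, 0.11 and 0.16. TNIP1, which encodes a binding partner of A20, had 80.2, 67.2 and 78.0 TPM in U87, 34.4, 36.5 and 30.2 in GSCs and 35.5, 39.9 and 37.2 in Diff cells. It fell by 1.14 in GSCs against U87 (adjusted p = 1.39e-05) and by 0.98 in Diff cells against U87 (adjusted p = 4.88e-05 from limma), in the lines in which TNFAIP3 rose. NLRX1, a mitochondrial NOD-like protein described as a restraint on this pathway, rose by 1.18 and 1.53 in GSCs and Diff cells against U87. PDLIM2, a ubiquitin ligase for nuclear RELA, fell by 1.22 in GSCs and fell by 1.24 in Diff cells against U87. Its means were 3.02 TPM in U87, 0.733 in GSCs and 0.703 in Diff cells, a level at which the added 1 TPM compresses the differences. ZC3H12A, the RNase regnase-1, rose by 0.79 in Diff cells against GSCs, and NFKBIL1, an IκB-like gene, fell by 0.68. NLRX1 also rose by 0.35 in Diff cells against GSCs, a call lost with any 1 of 5 libraries left out (GSCs replicate 1 or 3 or any Diff library, adjusted p from 0.0743 to 0.119 from limma) and without the filter (adjusted p = 0.0565).

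In the list of receptors and adaptors, 27 genes were tested, of which 8 rose and 9 fell in GSCs against U87, 7 rose and 8 fell in Diff cells against U87, and 6 rose and 6 fell in Diff cells against GSCs. These are 63.0%, 55.6% and 44.4% of the list, beside 48.6%, 39.4% and 34.8% of all genes, and the 3 medians lay between 0.00 and 0.01. TNFRSF1B, the second receptor for TNF, had 26.6, 26.7 and 27.2 TPM in U87, 57.2, 59.3 and 53.4 in GSCs and 49.6, 48.8 and 43.6 in Diff cells. It rose by 1.05 in GSCs (adjusted p = 2.78e-06) and by 0.79 in Diff cells (adjusted p = 2.16e-05 from limma) against U87. IL1RAP, the accessory chain of the interleukin-1 receptor, had 10.9, 9.84 and 10.3 TPM in U87 and 2.17 to 2.91 in the 6 libraries of the derived lines, a fall of 1.70 in each (adjusted p = 6.03e-06 and 9.02e-06 from limma). IL1R1, the receptor chain itself, rose by 0.63 in Diff cells against U87 and by 0.75 against GSCs. TRAF1, an adaptor that is an NF-κB target, fell by 0.79 in Diff cells against U87 and by 1.18 against GSCs. Its rise of 0.39 in GSCs against U87 (adjusted p = 0.0413 from limma) was lost when any 1 U87 library or GSCs replicate 2 or 3 was left out (adjusted p from 0.0503 to 0.13). It was also lost without the filter, in a fit of those lines alone, after quantile normalization or median-ratio scaling, and without RN7SL and mitochondrial genes (adjusted p from 0.051 to 0.0899). The fall of TNFRSF1B in Diff cells against GSCs, by 0.26, was lost without GSCs replicate 1 (adjusted p = 0.0505) or Diff replicate 3 (adjusted p = 0.0601 from limma), under median-ratio scaling (adjusted p = 0.0839) and without RN7SL and mitochondrial genes (adjusted p = 0.0562).

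Over the 65 tested genes of these 3 lists together, 16 rose and 22 fell in GSCs against U87, 11 rose and 14 fell in Diff cells against U87, and 17 rose and 13 fell in Diff cells against GSCs. These are 58.5%, 38.5% and 46.2% of the genes tested, beside the 48.6%, 39.4% and 34.8% of all genes given above. The median difference was -0.03, -0.03 and 0.01. In Diff cells against GSCs the count of 30 became 19 without Diff replicate 3.

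**Figure D5:**
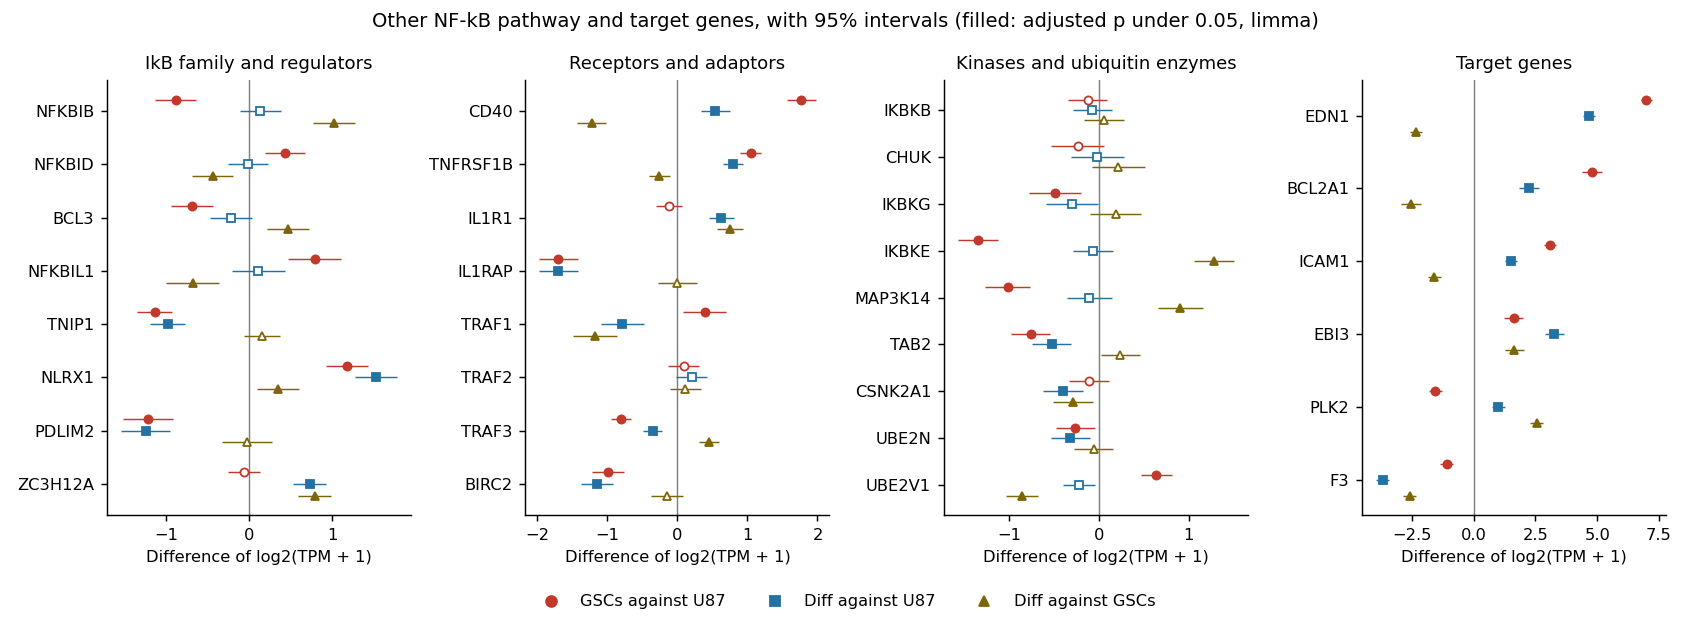
Difference of log2(TPM + 1) in the 3 comparisons for the named pathway and target genes outside the 10 members, with 95% intervals; filled symbols have an adjusted p under 0.05 from limma, and each panel has its own scale. NFKBIB, IKBKE and MAP3K14 lay below 0 for GSCs against U87, then above 0 for Diff cells against GSCs, and CD40 the reverse.

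Genes commonly listed as NF-κB targets moved in both directions. Of 55 on the list, 38 had a mean over 1 TPM, and 11 rose and 13 fell in GSCs against U87, 11 rose and 15 fell in Diff cells against U87, and 8 rose and 16 fell in Diff cells against GSCs. These are 63.2%, 68.4% and 63.2% of the 38, beside 48.6%, 39.4% and 34.8% of all genes tested. The median difference over the 38 was 0.05, -0.19 and -0.22, beside 0.02, -0.04 and -0.06 over all genes. The adhesion receptor ICAM1, the endothelin gene EDN1 and the BCL2-related survival gene BCL2A1 had the order of TNFAIP3, with GSCs highest, Diff cells next and U87 lowest in every library. Their log2 differences of GSCs from U87 were 3.09, 6.99 and 4.77, and those of Diff cells from GSCs -1.59, -2.34 and -2.55. EDN1 had means of 0.546, 197 and 38.1 TPM in U87, GSCs and Diff cells, and BCL2A1 means of 0.440, 38.0 and 5.62. Both stayed under 1 TPM in every U87 library. They thus passed the filter through the derived lines, and the added 1 TPM shapes the size of their differences from U87. The cytokine subunit gene EBI3 rose by 1.61 in GSCs and 3.26 in Diff cells against U87, in the order of NFKB1. The tissue factor gene F3 fell by 1.09 and 3.69 in GSCs and Diff cells against U87, while the kinase gene PLK2 fell by 1.55 in GSCs and rose by 0.99 in Diff cells.

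Markers of other cell types were read beside these results. The endothelial markers PECAM1, CDH5 and VWF summed to 16.4 to 18.9 TPM in GSCs, 2.66 to 4.41 in U87 and 4.13 to 5.55 in Diff cells. Their sum was highest in GSCs, as were NFKB2, TNFAIP3, CD40 and ICAM1, and it overlapped between U87 and Diff cells. In GSCs most of it came from VWF and PECAM1, with means of 11.4 and 6.25 TPM. CDH5, a defining gene of that cell type, stayed between 0.0711 and 0.465 TPM in every library. The 4 myeloid markers summed to 13.3 to 16.8 TPM in U87, 4.74 to 5.50 in GSCs and 9.39 to 11.4 in Diff cells, nearly all from CSF1R, while PTPRC stayed at or under 0.137 TPM and AIF1 at or under 0.121. The 3 lymphoid markers summed to at most 0.132 TPM. The 3 neuronal markers summed to 26.5 to 27.5 TPM in Diff cells and to at most 13.7 elsewhere, a difference that came mostly from MAP2. In U87, GSCs and Diff cells MAP2 had means of 7.95, 8.22 and 21.7 TPM. TUBB3 had means of 3.74, 4.66 and 5.22 TPM and RBFOX3 of 0.113, 0.107 and 0.101 in the same order. All libraries came from cultures of U87 or of lines derived from it. In bulk RNA, fewer cells with a transcript and less of it per cell cannot be told apart, and the part of these genes in the results was not tested.

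The neighbours of each member, the 12 tested genes on either side, were read to place its change among the genes around it. For TNFAIP3 the 24 neighbours had median differences from U87 of 0.29 in GSCs and -0.03 in Diff cells, beside its own 1.75 and 1.26, and -0.42 in Diff cells against GSCs, beside its own -0.49. In that last comparison 12 of the 24 fell and none rose, where 4535 of all 22909 genes fell and 3447 rose. For NFKB2 the medians were 0.08, 0.13 and 0.09, beside its own 0.76, -0.32 and -1.08. For RELA they were -0.37, -0.25 and 0.18, with 13 of 24 neighbours falling and 3 rising in GSCs against U87 (5334 fell and 5795 rose among all 22909 genes), beside its own -0.22, -0.30 and -0.08.

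BIRC3 and BIRC2 lie on chromosome 11q among genes that were higher in the derived lines. The 24 tested neighbours of BIRC3 had a median of 0.62 in GSCs against U87, with 16 rising and 2 falling, and of 0.53 in Diff cells against U87, with 13 rising and 1 falling. Among all 22909 genes, 5795 rose and 5334 fell in the first comparison and 4339 rose and 4685 fell in the second. BIRC3 stayed under 0.47 TPM. BIRC2, which is itself among these 24 neighbours, fell in both lines and had the lowest difference of them, -0.995 in GSCs and -1.14 in Diff cells against U87. For NFKBIZ the neighbours had medians of -0.10 and 0.10 in Diff cells against U87 and against GSCs, beside falls of 0.73 and 0.60 of the gene itself, and for NFKBIE 0.14 in both comparisons with U87, beside its own 0.63 and 0.75. For NFKB1 the neighbours had medians of 0.27, 0.10 and -0.20, beside its own 0.24, 0.48 and 0.24. Its difference was thus close to the median only in GSCs against U87, where the neighbours spread from -2.27 to 1.28. In Diff cells against GSCs it had the opposite sign. For NFKBIA the medians were 0.13, -0.01 and -0.13, beside its own 0.16, -0.02 and -0.18, close to the median in all 3 comparisons. Its neighbours spread from -1.05 to 0.58 in GSCs against U87. For RELB they were 0.30, 0.12 and -0.03, beside its own 0.12, -0.36 and -0.48, and for REL -0.14, -0.09 and 0.00, beside its own -0.15, -0.04 and 0.10.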

How the data were processed

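Each of the cell lines U87, GSCs and Diff gave 3 RNA-seq libraries. By the sample records RNA was extracted with Magzol, depleted of ribosomal RNA and built into directional libraries, while the paper's methods describe Trizol and oligo(dT) beads. The submitters' processing notes name FastQC 0.11.9, Trimmomatic 0.39, HISAT2 2.2.1, featureCounts 2.0.5, R 4.2.0 and the GRCh38 build, without giving their settings. The authors deposited log2 values, log2(TPM + 1), for 60606 genes; transformed back, each library summed to 1000000 TPM. TPM keeps no read depth, so no counting interval was computed and the spread between libraries was the only error.

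Genes with a mean over 1 TPM entered 1 model of the 9 libraries in limma 3.58.1 (R 4.3.3, empirical Bayes with an intensity trend), with Benjamini-Hochberg adjustment over 22909 genes in each of 3 comparisons. The code was tested on simulated data. Alternatives covered pseudocounts of 0.1 and 5, the filter, other scalings, the model, the threshold, and each library left out. The alternatives counted for a single gene did not include the threshold, which was varied for counts of genes only. Ratios of means were taken on TPM.

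The members and all gene lists were chosen with earlier results of these data known. Named genes were the 10 members, 10 upstream and IκB genes set by name, and the 3 genes with the largest difference among those past the test in each of 4 lists and each comparison. Positions and overlaps came from GENCODE 29 and promoters from RefSeq GRCh38.p14.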

Additional observations from a re-analysis of the deposited data

How the results depend on the processing

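Read depth is not kept in TPM, so the error of low genes such as REL, NFKBIE and BIRC3 could not be set against counting error, and the number of libraries, 3 per line, limits every test. Several called differences of the members kept direction and call in all alternatives that left the threshold unchanged. These were those of TNFAIP3, NFKB2 between GSCs and either other line, NFKBIZ in Diff cells, and NFKB1 and NFKBIE in Diff cells against U87. Of these, only TNFAIP3 in the comparisons with U87 and NFKB2 in Diff cells against GSCs also had an absolute log2 difference over 1 as reported. Among the alternatives, the difference of NFKB2 shrank to as little as -0.870. That of TNFAIP3 in Diff cells against U87 shrank to as little as 0.967. With an absolute log2 difference over 1 also required, fewer genes passed in GSCs against U87, Diff cells against U87 and Diff cells against GSCs. The counts in that order were 1, 1 and 1 of the 9 tested members and 8, 4 and 4 of the 65 other pathway genes. Those of the 38 target genes were 11, 14 and 12. Of all 22909 genes tested, 17.1%, 12.3% and 8.01% were called in that order. With 1 library left out, the members past the test ranged from 2 to 5, 4 to 5 and 4 to 6 in the same order, the other pathway genes from 33 to 41, 20 to 23 and 19 to 31, and the target genes from 21 to 24, 22 to 26 and 20 to 23.

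Libraries with the same replicate number did not deviate together, with correlations from -0.0416 to 0.0489 over 9 pairs. Over the 18 pairs with different numbers the correlations ran from -0.0575 to 0.0535. These values cannot tell whether libraries with the same number were cultured or prepared together. With the replicate number as a block, the members past the test were 4, 6 and 5, the other pathway genes 36, 23 and 24 and the target genes 22, 26 and 22. Among named genes the block took the adjusted p of NFKB1 to 0.0596 for GSCs against U87 and to 0.0875 for Diff cells against GSCs, and those of CSNK2A1 and NLRX1 in Diff cells against GSCs to 0.0768 and 0.0545; it changed no other call of a named gene.

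Differences near 0, none of them past the test as reported, changed sign in some alternatives, and the cause was not tested. For Diff cells against U87, quantile normalization gave 0.0299 for REL, 0.00984 for CHUK and 0.0566 for NFKBID. Median-ratio scaling gave 0.0145 for NFKBIA, 0.0161 for CHUK and 0.0179 for NFKBID, and TPM without RN7SL and mitochondrial genes 0.00872, 0.0109 and 0.0136 for the same genes. For Diff cells against GSCs, IL1RAP was -0.000432 with a pseudocount of 0.1, PDLIM2 0.0496 after quantile normalization, and UBE2N and PDLIM2 0.012 and 0.0036 without RN7SL and mitochondrial genes. With 1 library left out, the differences of Diff cells from U87 ranged from -0.115 to 0.0161 for REL, from -0.0644 to 0.00376 for NFKBIA, from -0.0466 to 0.0274 for CHUK and from -0.0277 to 0.0146 for NFKBID. Those of Diff cells from GSCs ranged from -0.185 to 0.00194 for RELA, from -0.0218 to 0.267 for NFKBIE, from -0.082 to 0.0438 for IL1RAP, from -0.119 to 0.0426 for UBE2N and from -0.0819 to 0.00401 for PDLIM2. Those of GSCs from U87 ranged from -0.00932 to 0.154 for TRAF2 and from -0.132 to 0.0363 for ZC3H12A.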
